A study of Mus musculus with 48 samples.

Results

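The noncoding genes described here lie inside the mouse Hox clusters and were followed in hypothalamic cells of *Eed-cKO* embryos and their controls. They were the rows of the deposited count table named *Hotairm1*, *Hoxaas2*, *Hoxaas3*, *Hoxa11os*, *Hoxb5os*, *Hoxd3os1* and *Haglr*, that is 7 of 16510 genes. The table held unique molecular identifier (UMI) counts of single cells at E18.5, made on the ddSEQ droplet platform, from 48 libraries of 15 embryos. The hypothalami of 6 control embryos (*Eed fl/fl*, 2 female and 4 male, 22 libraries) were compared with those of 9 *Eed-cKO* embryos (*Eed fl/fl; Sox1-Cre/+*, 5 female and 4 male, 26 libraries). Both groups carried the floxed *Eed* alleles and the *Cre* driver was present only in the mutants. *Cre* inserted at *Sox1* acts in the neuroectoderm, so the non-neural cells of the mutants are not expected to lose *Eed*. Control embryos came from 4 litters and *Eed-cKO* embryos from 6 others, so litter and genotype cannot be told apart.

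Hox genes sit in 4 clusters in mammals and specify position along the head-to-tail axis. They are silent in the forebrain, where Polycomb repressive complex 2 (PRC2), of which Eed is a subunit, keeps their chromatin marked with H3K27me3. Noncoding RNAs are transcribed from the same clusters, mostly from the strand opposite to the Hox genes. *Hotairm1* is known from myeloid cells and from retinoic acid responses. *Hoxa11os* runs opposite to *Hoxa11* and is known from limb and uterus, and *Haglr* is the HoxD antisense growth-associated RNA. *Hoxaas2* and *Hoxaas3* are numbered antisense RNAs of the HoxA cluster, and *Hoxb5os* and *Hoxd3os1* are named as opposite-strand RNAs of *Hoxb5* and *Hoxd3*.

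The genes were placed with GENCODE vM21 (GRCm38/mm10). The HoxA cluster on chromosome 6 holds 4 of them on its plus strand, *Hotairm1* (52156902-52162119), *Hoxaas2* (52165674-52169564), *Hoxaas3* (52175217-52215076) and *Hoxa11os* (52244393-52249799). *Hoxb5os* lies in HoxB on the minus strand of chromosome 11 (96291024-96306910). *Hoxd3os1* (74703248-74716130) and *Haglr* (74748422-74762896) lie in HoxD on the minus strand of chromosome 2. These genes share exonic bases with Hox genes of the opposite strand. The shared length was 503 bases for *Hoxaas2* with *Hoxa3*, 586 for *Hoxaas3* with *Hoxa7* and 297 with *Hoxa3*, 800 for *Hoxa11os* with *Hoxa11*, 100 for *Hoxb5os* with *Hoxb5*, 347 for *Hoxd3os1* with *Hoxd3* and *Hoxd4*, and 21 for *Haglr* with *Hoxd3*. The strand setting of the counting is not given in the sources used here, so UMIs from these shared bases are uncertain for both partners.

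Droplet libraries of this kind are primed at the RNA's poly(A) end, so the annotated 3′ end of each transcript is shown, as the part closest to what was sequenced. Each line gives the last 60 bases of the RefSeq-matched GENCODE transcript that reaches furthest downstream (GRCm38/mm10, strand after the coordinates), with the polyadenylation motif AATAAA in capitals.
Hotairm1 (chr6:52161961-52162020, +): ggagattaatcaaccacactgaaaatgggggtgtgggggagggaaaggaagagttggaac
Hoxaas2 (chr6:52169392-52169451, +): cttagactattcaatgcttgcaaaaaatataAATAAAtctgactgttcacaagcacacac
Hoxaas3 (chr6:52213556-52213615, +): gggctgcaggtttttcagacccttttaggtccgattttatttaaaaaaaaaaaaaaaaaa
Hoxa11os (chr6:52249710-52249769, +): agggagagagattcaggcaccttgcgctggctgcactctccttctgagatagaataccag
Hoxb5os (chr11:96291024-96291083, -): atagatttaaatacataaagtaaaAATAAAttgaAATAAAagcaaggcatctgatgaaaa
Hoxd3os1 (chr2:74710193-74710252, -): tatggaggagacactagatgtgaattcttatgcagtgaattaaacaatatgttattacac
Haglr (chr2:74749873-74749932, -): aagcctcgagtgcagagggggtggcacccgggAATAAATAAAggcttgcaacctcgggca
The motif stood in 3 of the 7 ends (*Hoxaas2*, *Hoxb5os* and *Haglr*), against 24.0% of 30190 noncoding transcripts and 27.1% of all 141767 transcripts in their last 60 bases. The *Hoxaas3* transcript ended in a run of 18 A. A match describes the letters only.

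Promoter sequences of RefSeq (GRCm38.p6, 250 bases before to 50 after the RefSeq gene start) matched 2 of the 7 genes. For *Hoxa11os* that start (52245243) is the start of the transcript shown above, downstream of the GENCODE gene start, and the stretch lies inside the *Hoxa11* gene (52242106-52245810). For *Hoxd3os1* it is the GENCODE gene start. They are shown because PRC2 is known to occupy promoters rich in CG dinucleotides, which stand in capitals.
Hoxa11os (chr6:52244993-52245292, +): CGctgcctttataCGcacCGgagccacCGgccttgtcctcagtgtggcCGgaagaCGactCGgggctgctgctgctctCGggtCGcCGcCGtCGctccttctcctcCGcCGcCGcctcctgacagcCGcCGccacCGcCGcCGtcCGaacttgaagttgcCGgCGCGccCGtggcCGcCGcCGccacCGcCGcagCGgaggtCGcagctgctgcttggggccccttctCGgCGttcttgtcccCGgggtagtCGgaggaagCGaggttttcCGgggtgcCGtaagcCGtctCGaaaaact
Hoxd3os1 (chr2:74716081-74716380, -): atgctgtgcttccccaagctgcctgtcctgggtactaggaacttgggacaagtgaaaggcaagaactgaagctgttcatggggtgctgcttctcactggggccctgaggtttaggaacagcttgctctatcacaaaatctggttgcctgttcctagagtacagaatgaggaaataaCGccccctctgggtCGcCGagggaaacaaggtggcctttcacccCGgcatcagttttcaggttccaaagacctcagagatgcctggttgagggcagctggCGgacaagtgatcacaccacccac
The *Hoxa11os* promoter held 41 CG dinucleotides, a number reached by 3.46% of 32851 promoters of this length, whose median was 7. That of *Hoxd3os1* held 5, which 62.0% of promoters reached.

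All-Hypo denotes the cells taken as neural, here 13294 of 14121 cells (6839 control and 6455 *Eed-cKO*). Clusters with markers of vascular, leptomeningeal or microglial cells (827 cells) were set aside. Unnamed clusters, which met no marker list, were kept, so All-Hypo can hold cells that are not hypothalamic neural cells. One was led by *Alas2*, *Pomc* and *Cga* (223 *Eed-cKO* cells and 1 control cell). Another was led by *Ttr* and *Cga* (61 *Eed-cKO* cells and no control cell). Summed UMIs of All-Hypo cells ranged from 5055844 to 7328566 per control embryo and from 627508 to 5787326 per *Eed-cKO* embryo. The lowest *Eed-cKO* total was that of embryo 9, with 208 All-Hypo cells. One library, of control embryo 5, stood apart with 1207 cells, against 163 to 465 in the others. Cell barcodes shared between libraries were found in 203 cells. Levels are given as CPM, UMI counts relative to the embryo's total after TMM scaling. Hypothalamic genes were present in both groups, with *Nkx2-1* between 109 and 169 CPM in control and between 74.6 and 245 CPM in *Eed-cKO*, and *Sim1* between 28.9 and 61.1 and between 24.9 and 65.5 CPM. *Rax*, a tanycyte gene, ran from 1.73 to 3.30 CPM in control and 3.67 to 17.5 CPM in *Eed-cKO*, *Pomc* from 10.9 to 38.0 and 8.56 to 476 CPM, and *Avp* from 169 to 1252 and 0 to 414 CPM. The part of the unnamed cluster with *Pomc* in the *Pomc* range was not tested. *Eed* itself was at 31.9 ± 1.90 CPM in control (SD, n = 6) and 23.3 ± 2.59 CPM in *Eed-cKO* (n = 9). In edgeR's test it fell by 0.45 on the log2 scale (adjusted p = 0.000448), and the other PRC2 genes, *Ezh1*, *Ezh2* and *Suz12*, did not pass the test. Only exons in the middle of *Eed* are floxed, so UMIs from its 3′ end do not measure the deletion.

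The noncoding Hox RNAs were nearly absent from control and present at low levels in *Eed-cKO*. Over all All-Hypo cells, the 7 genes summed to 8 UMIs in the controls, against 380 in the mutants. The 34 protein-coding Hox genes of the table had 6 and 16045 UMIs. Control UMIs belonged to *Hotairm1* (7) and *Hoxd3os1* (1), and the other 5 genes had none. In *Eed-cKO*, *Hoxa11os* gave 195 UMIs, *Hotairm1* 90, *Hoxd3os1* 32, *Hoxaas3* and *Haglr* 20 each, *Hoxb5os* 12 and *Hoxaas2* 11. These counts are UMIs and are not scaled by gene length. Fewer cells with an RNA and less RNA per cell cannot be told apart in sums.

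**Figure D1:**
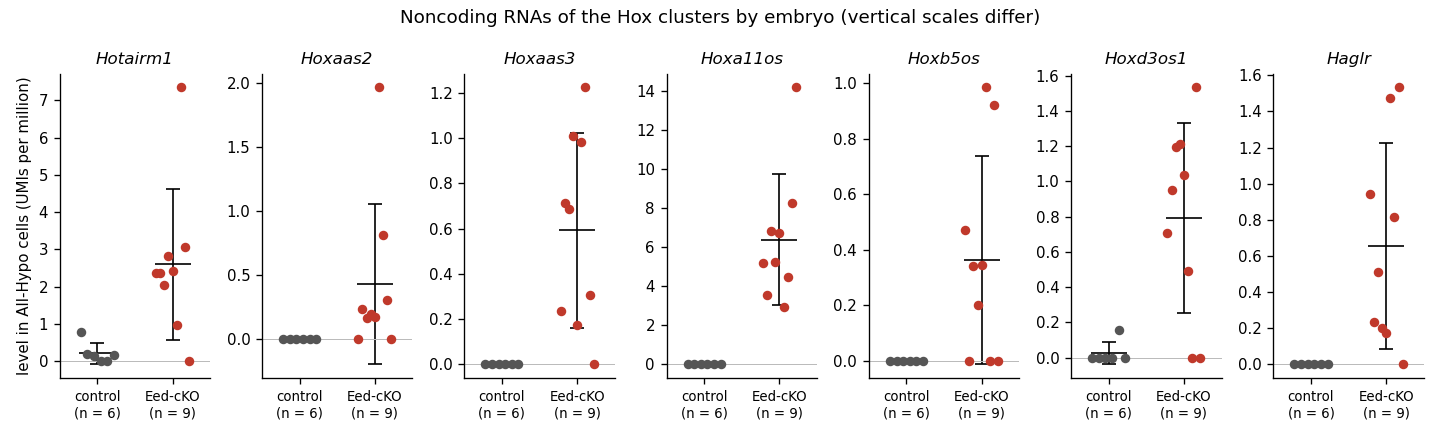
Level of each noncoding RNA in All-Hypo cells (CPM, vertical axes differ) for every control (grey) and *Eed-cKO* (red) embryo, with mean and SD. All 9 *Eed-cKO* embryos lie above the controls for *Hoxa11os* alone, and the other 6 genes have at least 1 *Eed-cKO* embryo at 0.

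*Hoxa11os*, the opposite-strand RNA of *Hoxa11*, was the most abundant. It had no UMI in any control embryo. In *Eed-cKO* embryos 1 to 9 it was at 5.20, 3.56, 6.84, 5.24, 6.74, 2.95, 4.49, 8.28 and 14.2 CPM, from 22, 15, 40, 26, 39, 6, 11, 27 and 9 UMIs. Each *Eed-cKO* embryo thus lay above every control embryo, as was so for 3.6% of all genes in the table. The mean was 6.38 ± 3.36 CPM (SD, n = 9), at least 73.9-fold higher than control, where the bound sets the control at 3 UMIs over the group. The edgeR quasi-likelihood test gave a log2 fold change of 7.79 (SE 0.615, adjusted p = 1.12e-07 over 12558 genes). It was the only 1 of the 7 genes that passed the study's filter on low counts, and it passed through the group where it was high. In that fit 15.3% of genes were called higher in *Eed-cKO*.

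*Hotairm1* had the most control UMIs of the 7 genes. Control embryos 1, 2, 3 and 6 had 4, 1, 1 and 1 UMIs (0.785, 0.194, 0.139 and 0.160 CPM), and embryos 4 and 5 had none. *Eed-cKO* embryos 1 to 9 had 10, 10, 12, 14, 14, 2, 18, 10 and 0 UMIs, which was 2.36, 2.37, 2.05, 2.82, 2.42, 0.984, 7.34, 3.07 and 0 CPM. In *Eed-cKO*, 8 of 9 embryos lay above all controls, and embryo 9, the shallowest, overlapped them. The mean was 0.213 ± 0.292 CPM in control (n = 6) and 2.60 ± 2.02 CPM in *Eed-cKO* (n = 9). The ratio of pooled levels was 14.6 (95% counting interval 6.81 to 37.4). Of the 7 control UMIs, 4 came from embryo 1, without which the control share of cells with *Hotairm1* was 0.0587% in place of 0.112%. With 7 UMIs, *Hotairm1* had more control UMIs than all 34 Hox protein-coding genes together (6). All 7 came from different cells, 6 of them glial or progenitor-like and 1 neuron-like, and none of these cells had a UMI of a Hox protein-coding gene.

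The HoxD RNAs followed at lower levels. *Hoxd3os1* had 1 UMI in control embryo 5 and 3, 4, 7, 6, 6, 1, 0, 5 and 0 UMIs in *Eed-cKO* embryos 1 to 9 (0.792 ± 0.539 CPM, SD, n = 9). With 1 control UMI, the ratio of 36.4 has a counting interval from 6.08 to 1482. *Haglr* had no control UMI and 4, 1, 3, 1, 1, 3, 2, 5 and 0 UMIs in the mutants (0.655 ± 0.572 CPM, at least 7.58-fold higher). *Hoxd3os1* was absent from embryos 7 and 9 and *Haglr* from embryo 9, so the groups overlapped for both.

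*Hoxaas3*, which overlaps *Hoxa3*, *Hoxa4*, *Hoxa5* and *Hoxa7*, had 1, 3, 4, 5, 1, 2, 3, 1 and 0 UMIs in *Eed-cKO* embryos (0.592 ± 0.430 CPM, SD, n = 9, at least 7.58-fold higher). *Hoxaas2* had 0, 1, 1, 1, 1, 4, 2, 1 and 0 UMIs (0.430 ± 0.625 CPM, at least 4.17-fold). *Hoxb5os*, the only HoxB gene of the set, had 2, 0, 2, 1, 2, 2, 0, 3 and 0 UMIs (0.363 ± 0.376 CPM, at least 4.55-fold). None of these RNAs had a control UMI, and each was missing from 1 to 3 mutant embryos.

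Of the 7 genes, 6 were too low for the study's filter. With its total-count part alone (at least 15 UMIs), 5 genes entered edgeR's test and all 5 were called higher (14.2% of the 15774 genes tested were). With at most 7 control UMIs they reached that total only through the *Eed-cKO* group, so the direction of their calls was fixed by the filter and the count supports nothing. Log2 fold changes were 3.64 (SE 0.576, adjusted p = 6.67e-05) for *Hotairm1*, 4.13 (SE 0.718, adjusted p = 0.000186) for *Hoxd3os1*, 4.56 (SE 0.874, adjusted p = 0.000932) for *Hoxaas3*, and 4.60 (SE 0.955, adjusted p = 0.00178) for *Haglr*, by edgeR's test. Without control embryo 1 the value of *Hotairm1* was 4.47 (adjusted p = 1.34e-05 in edgeR). With no filter beyond that of the deposited table, whose rarest gene had 7 UMIs, all 7 were called (13.6% of 16487 genes higher). In edgeR *Hoxb5os* had an adjusted p of 0.00768 and *Hoxaas2* of 0.0148. All but *Hotairm1* had at most 1 control UMI and stood in the table through the *Eed-cKO* group, so this count supports nothing either. Fitted fold changes of genes at 0 in control depend on edgeR's prior count.

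By contrast with these sparse RNAs, 17 Hox genes flank or overlap the 7 genes (the nearest genes present in the table), of which 14 passed the filter and all 14 were called higher (15.3% of all genes tested were). With no control UMI in 15 of the 17, they too passed only through the group where they were high, and the count is a description. Of 17 further noncoding genes listed for the Hox clusters, the table held *Mira*, of the HoxA cluster, and *Hotair*, of HoxC, an RNA known for its study with PRC2. *Mira* was at 22.6 ± 3.03 CPM and *Hotair* at 5.60 ± 1.81 CPM in *Eed-cKO* (n = 9), with no control UMI, and both were called higher.

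**Figure D2:**
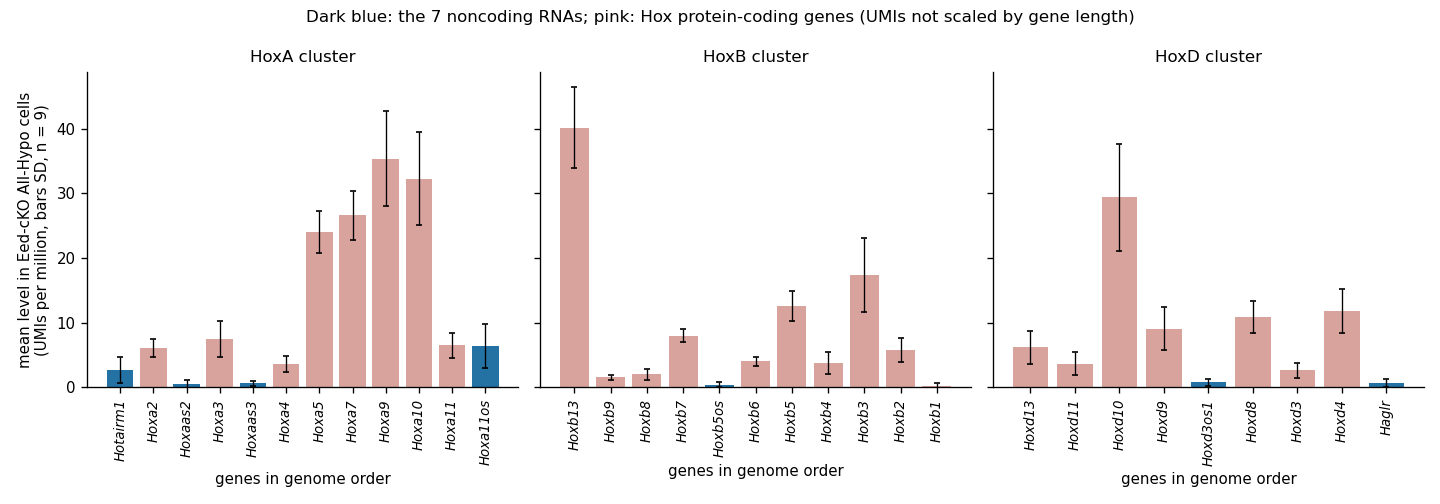
Mean level in *Eed-cKO* All-Hypo cells (CPM, error bars SD over 9 embryos) of the noncoding RNAs (dark blue) and Hox protein-coding genes (pink) of the HoxA, HoxB and HoxD clusters, in genome order. *Hotairm1* and *Hoxa11os* stand at 2.60 and 6.38 CPM toward the outer ends of HoxA, and the other 5 RNAs stay under 0.8 CPM. Levels are UMIs and not scaled by length.

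The share of cells with each RNA was then compared by embryo. *Hoxa11os* was detected, with at least 1 UMI, in 168 of 6455 *Eed-cKO* All-Hypo cells and in 0 of 6839 control cells, which allows a control share of up to 0.0439%. The share per *Eed-cKO* embryo was lowest at 1.34%, with a median of 2.59% and a highest value of 3.85% (2.65% ± 0.960, SD, n = 9), and an exact two-sided permutation test over embryos gave p = 0.0004. *Hotairm1* was in 83 *Eed-cKO* cells (1.21% ± 0.766, n = 9) and 7 control cells (0.112% ± 0.140, n = 6; exact permutation p = 0.0046). Shares in *Eed-cKO* were 0.283% for *Hoxaas3* (19 cells, exact permutation p = 0.0046), 0.306% for *Haglr* (19 cells, p = 0.0074), 0.367% for *Hoxd3os1* (28 cells, p = 0.0116), 0.172% for *Hoxb5os* (11 cells, p = 0.0314) and 0.205% for *Hoxaas2* (11 cells, p = 0.0785). These are 7 tests without adjustment, and the smallest p that 5005 splits of 6 and 9 embryos can give is 0.0002. For the 5 RNAs without a control UMI, no *Eed-cKO* embryo could lie lower, so the direction was fixed. Their p follows largely from the number of *Eed-cKO* embryos with a positive cell. The share of *Hoxaas2* thus did not pass, and that of *Hoxb5os* lost its call without the 6% of cells with the highest doublet scores (p = 0.0709), without unnamed clusters (p = 0.0859), without any 1 of the 6 control embryos (p = 0.0504) and without *Eed-cKO* embryo 1, 3, 6 or 8 (p = 0.0549), all by exact permutation. *Hoxaas2* passed without *Eed-cKO* embryo 1, 6, 7 or 9 (exact permutation p = 0.0273, 0.023, 0.0416 and 0.0273), and without embryo 6 its share was 0.119%.

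Most cells with an RNA held a single UMI of it. This was so for 144 of the 168 *Hoxa11os* cells, 21 of which had 2 and 3 of which had 3 or more. All 11 *Hoxaas2* cells had 1 UMI. Cells with *Hotairm1* were deeper, at a median of 5956 UMIs, than *Eed-cKO* cells without it (4402), and cells with *Hoxa11os* had 4764 against 4413. Thinned to 2000 UMIs per cell, a depth that 1231 control cells and 1015 mutant cells did not reach, 5 of the 7 shares were still higher in *Eed-cKO* (*Hoxa11os* 1.18%, *Hotairm1* 0.662%), and *Hoxb5os* and *Hoxaas2* did not pass (exact permutation p = 0.486 and 0.743).

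Non-neural cells of the mutants, which *Sox1-Cre* is not expected to reach, were taken as the background from free RNA. That their UMIs are free RNA was assumed and not tested. In 480 of them, *Hoxa11os* and *Hotairm1* each had 1 positive cell and the other 5 genes none, which allows a share of up to 0.625%. Their median depth was 3703 UMIs, against 4426 in *Eed-cKO* All-Hypo cells. The share of *Hoxa11os* was higher in All-Hypo than in non-neural cells in 9 of 9 embryos (by 2.53 percentage points, exact sign-flip permutation p = 0.0039, the smallest it can give). For *Hotairm1* it was higher in 7 of 9 (by 0.897 points, exact permutation p = 0.0156), and this call was lost after thinning (0.179 points, exact permutation p = 0.727). The 5 sparse genes had no positive non-neural cell in any embryo, so no embryo could lie lower in All-Hypo, and their sign-flip p (0.0078 to 0.0312 in exact permutation tests) follows from the number of embryos with a positive cell. Those tests are not read, because the All-Hypo shares lay under the 0.625% that a count of 0 allows.

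Cells with the RNAs were concentrated in 3 neural clusters, though single cells were found in many others. Clusters were built without the Hox genes and these RNAs among the variable genes. A neuron-like cluster led by *Tfap2b*, with 1578 *Eed-cKO* and 47 control cells, an astrocyte or radial glia-like cluster (478 *Eed-cKO* cells) and an oligodendrocyte precursor-like cluster (197) held 34.9% of the *Eed-cKO* All-Hypo cells and 81.6% of the 326 cells with any of the 7 RNAs. The 3 clusters were singled out after their values were seen. They held 144 of 168 cells with *Hoxa11os*, 70 of 83 with *Hotairm1*, 16 of 19 with *Hoxaas3*, 10 of 11 with *Hoxaas2*, 19 of 28 with *Hoxd3os1*, 13 of 19 with *Haglr* and 7 of 11 with *Hoxb5os*.

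**Figure D3:**
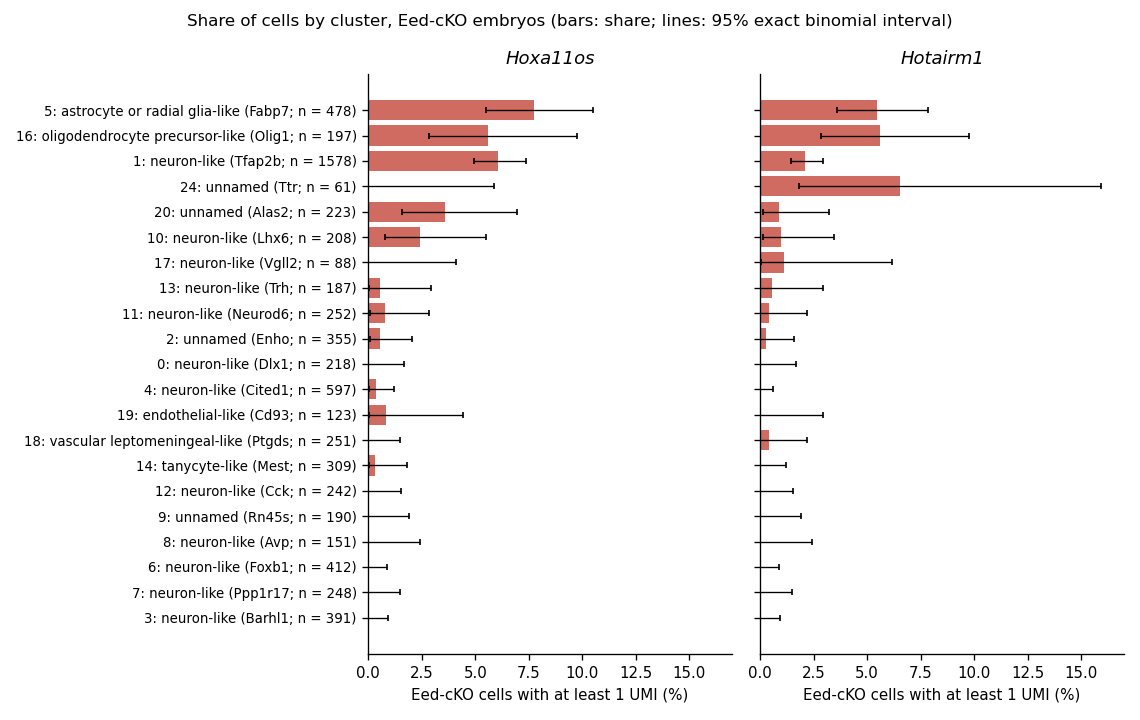
Share of *Eed-cKO* cells with at least 1 UMI of *Hoxa11os* (left) and *Hotairm1* (right) in each cluster of at least 50 *Eed-cKO* cells, ordered by the share with any of the 7 RNAs, with exact 95% binomial intervals. The astrocyte or radial glia-like, oligodendrocyte precursor-like and *Tfap2b* clusters lie at 7.74%, 5.58% and 6.08% for *Hoxa11os*, and several neuron-like clusters are at 0.

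*Hoxa11os* was in 6.08% of cells of the *Tfap2b* cluster (exact 95% binomial interval 4.96 to 7.38), 7.74% of astrocyte or radial glia-like cells (5.51 to 10.5) and 5.58% of oligodendrocyte precursor-like cells (2.82 to 9.77). *Hotairm1* was in 2.09% (1.44 to 2.92), 5.44% (3.58 to 7.87) and 5.58% (2.82 to 9.77) of the same cells. In tanycyte-like cells, which line the third ventricle, *Hoxa11os* was in 1 and *Hotairm1* in 0 of 309 cells, at a median of 3100 UMIs. Any of the 7 RNAs was in 0 of 391 cells of the *Barhl1* cluster, 0 of 412 of the *Foxb1* cluster, 0 of 248 of the *Ppp1r17* cluster, 0 of 151 of the *Avp* cluster and 0 of 242 of the *Cck* cluster. The *Avp* cells were deeper (median 7974 UMIs) than the astrocyte or radial glia-like cells (4042). A UMI of any Hox protein-coding gene was in 91.1% of cells of the *Tfap2b* cluster, 70.3% of astrocyte or radial glia-like cells and 52.3% of oligodendrocyte precursor-like cells, but in 14.6% of both tanycyte-like and endothelial-like cells. Intervals cover counting error only.

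Shares in neuron-like cells were set against those in the other cells taken as neural, unnamed clusters among them. The RNAs were not tested against each other. *Hotairm1* was in 0.830% ± 0.658 of neuron-like cells and 2.20% ± 1.52 of the other neural cells of the same *Eed-cKO* embryos (SD, n = 9). It was lower in neuron-like cells in 7 of 9 embryos (exact sign-flip permutation p = 0.0234), also after thinning to 2000 UMIs (0.386% against 1.78%, exact permutation p = 0.0156). For *Hoxa11os* the shares were 2.45% ± 1.01 and 3.30% ± 1.42 (exact permutation p = 0.125), a difference of 0.849 percentage points that passed without embryo 7 (1.11 points, exact permutation p = 0.0469). Of the cells with *Hoxb5os*, 2 of 11 were neuron-like, against 16 of 19 with *Hoxaas3*, 15 of 19 with *Haglr* and 9 of 11 with *Hoxaas2*. Of all *Eed-cKO* All-Hypo cells, 4598 of 6455 were neuron-like. No difference between these classes passed for the 5 sparse genes.

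By transmitter, cells with UMIs of both *Slc17a6*, the glutamate transporter gene, and *Slc32a1*, the GABA transporter gene (Glut/GABA), had *Hoxa11os* in 4.73% of 1120 cells. Glut cells had it in 1.79% of 2296, GABA cells in 1.92% of 676 and cells with neither in 2.58% of 2363. Glut/GABA cells were also the deepest, at a median of 6347 UMIs against 5125, 4175 and 3104. By level, cells with neither were at 8.47 CPM and Glut/GABA cells at 7.96 CPM, so the order of shares was not that of levels, and the part of depth was not tested here. *Hoxaas3* was in 9 Glut/GABA cells, 2 Glut cells, 2 GABA cells and 6 with neither.

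Within glial or progenitor-like cells alone, *Hotairm1* was in 0.950% ± 1.25 of control cells (6 of 601, n = 6) and 3.24% ± 2.31 of *Eed-cKO* cells (38 of 1028, n = 9), and the difference did not pass (exact permutation p = 0.0505). In neuron-like cells alone the shares were 0.0195% and 0.830% (exact permutation p = 0.0044). *Hoxa11os* was higher in *Eed-cKO* in both classes (exact permutation p = 0.0006 and 0.0024).

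Co-detection asked if cells with a noncoding RNA also held its neighbouring Hox genes. For each RNA and gene, the *Eed-cKO* All-Hypo cells with both were counted and set against the number expected if the genes were independent within 5 equal bins of cell depth in each embryo. Of 23 pairs, 15 had more cells with both than expected, and 8 had none. More than expected were also found in 28 of 37 pairs with other Hox genes of the same cluster. For Hox genes of other clusters this was so in 124 of 178 pairs, so the count is not particular to neighbours. In 21 pairs the expected number was under 2.4 cells, so no test is given for them. The minimum of 5 expected cells for a test was set after these values were seen.

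**Figure D4:**
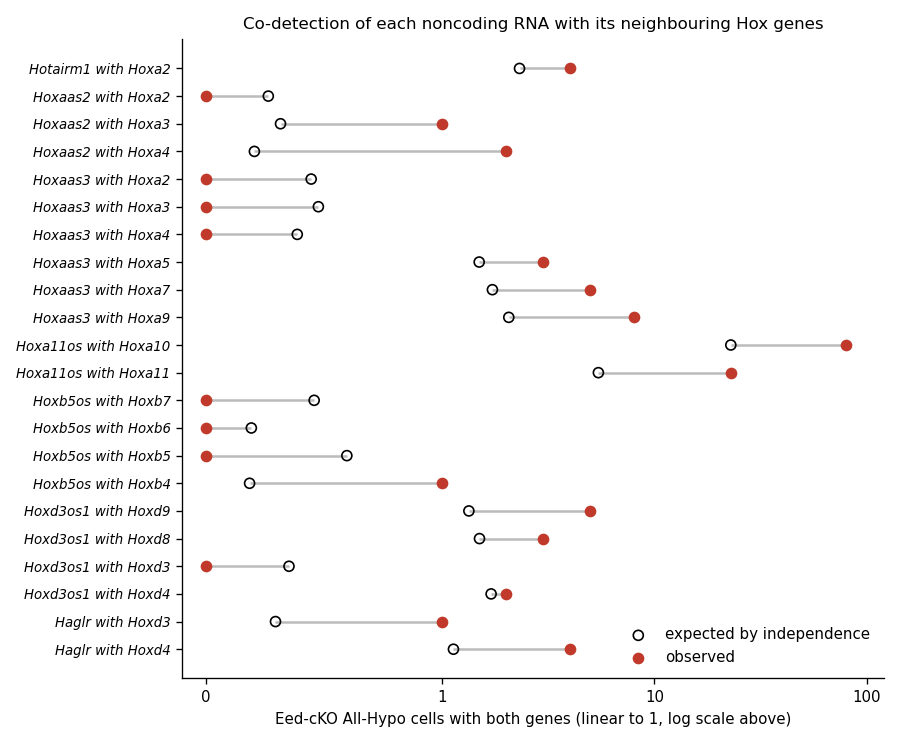
Number of *Eed-cKO* All-Hypo cells with both genes for 22 pairs of a noncoding RNA and a neighbouring Hox gene (filled red) and the number expected by independence within depth bins of each embryo (open), linear to 1 and on a log scale above. *Hoxa11os* with *Hoxa10* (80 against 22.9) and with *Hoxa11* (23 against 5.45) are the only pairs with 5 or more expected cells.

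*Hoxa11os* was found with *Hoxa10*, which lies 3539 bases away and shares no exonic base with it, in 80 cells against 22.9 expected. The ratio was 3.50, with more cells than expected in 9 of 9 embryos (exact sign-flip permutation p = 0.0039, the smallest it can give). With *Hoxa11*, which it overlaps, it was found in 23 cells against 5.45 expected (ratio 4.22, 7 of 9 embryos, exact permutation p = 0.0156). When independence was taken within the clusters of each embryo in place of depth bins, an alternative added after the data were seen, the expected numbers rose to 41.5 and 10.9 and the ratios fell to 1.93 and 2.11 (exact permutation p = 0.0039 and 0.0273). After thinning to 2000 UMIs the ratios were 3.49 and 3.29 and neither passed (exact permutation p = 0.113 and 0.25).

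The sparse pairs are given as counts. *Hotairm1* was found with *Hoxa2* in 4 cells against 2.32 expected. *Hoxaas3* was found with *Hoxa9* in 8 cells against 2.06, with *Hoxa7* in 5 against 1.73 and with *Hoxa5* in 3 against 1.5, but with *Hoxa2*, *Hoxa3* and *Hoxa4* in none, where 0.387 to 0.477 were expected. *Hoxd3os1* was found with *Hoxd9* in 5 cells against 1.34 and with *Hoxd8* in 3 against 1.5, but with *Hoxd4* in 2 against 1.70 and with *Hoxd3* in none (0.352 expected), the genes with which it shares exonic bases. *Hoxaas2* was found with *Hoxa4* in 2 cells (0.206 expected), with *Hoxa3* in 1 (0.316) and with *Hoxa2* in none (0.265). *Haglr* was found with *Hoxd4* in 4 cells against 1.13 and with *Hoxd3* in 1 against 0.295. *Hoxb5os* was found with *Hoxb4* in 1 cell and with *Hoxb5*, *Hoxb6* and *Hoxb7* in none, at 0.185 to 0.597 expected. Expected numbers under 1 leave a count of 0 uninformative.

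Cells with 6 of the 7 RNAs held more Hox genes than cells of like depth, which were not matched by cluster. *Eed-cKO* cells with *Hoxa11os* had 5.03 ± 0.734 of the 34 Hox protein-coding genes, against 1.87 ± 0.487 in cells of the same depth bins and embryos (SD, n = 9, higher in 9 of 9, exact sign-flip permutation p = 0.0039). For *Hotairm1* the numbers were 5.01 ± 1.55 and 2.01 ± 0.450 (8 embryos, exact permutation p = 0.0078). Numbers of 3.65 to 4.71 against 1.70 to 1.92 were found for *Hoxaas2*, *Hoxaas3*, *Hoxd3os1* and *Haglr* (exact permutation p = 0.0312, 0.0234, 0.0156 and 0.0469, without adjustment over the 7 tests). For *Hoxb5os* the numbers were 4.06 and 2.17 over 6 embryos, and the difference did not pass (exact permutation p = 0.125). At least 1 Hox protein-coding gene was detected in 163 of 168 cells with *Hoxa11os* and 77 of 83 with *Hotairm1*, against 46.3% of all *Eed-cKO* All-Hypo cells. For the sparse genes the share ran from 9 of 11 (*Hoxb5os*) to 27 of 28 (*Hoxd3os1*). By cluster, a Hox protein-coding gene was in 91.1% of *Eed-cKO* cells of the *Tfap2b* cluster and 14.6% of tanycyte-like cells. The comparisons of Hox genes per cell did not hold cluster fixed, and the part of cluster in them was not tested.

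Neighbouring and distant Hox genes were then compared. Over all 7 RNAs, cells with both were 3.20 times the expected number for neighbours (148 against 46.2) and 2.31 times for Hox genes of other clusters (1115 against 483). The difference was 0.44 ± 0.45 on the log2 scale (SD, n = 9, higher for neighbours in 8 of 9 embryos, exact sign-flip permutation p = 0.0273). It was lost within clusters (0.25, exact permutation p = 0.105) and, to p = 0.0547 by the exact permutation test, without embryo 4, 7 or 9 (0.38, 0.37 and 0.41). For *Hoxa11os* alone the ratios were 3.64 and 2.45 and the difference was 0.55 ± 0.43 (higher in 9 of 9 embryos, exact permutation p = 0.0039). Within clusters it was 0.47 (exact permutation p = 0.0117). The other 6 RNAs together gave 0.08 ± 0.89 over the 8 embryos with counts (exact permutation p = 0.875). The *Hoxa11os* value includes *Hoxa11*, with which exonic bases are shared. With the 7 HoxA genes that are not its neighbours, the ratio of *Hoxa11os* was 3.14 (213 against 67.8), between its ratios for neighbours and other clusters. Over all 7 RNAs the ratio for such genes of the same cluster was 2.76 (367 against 133). Neighbours were not tested against the rest of their own cluster, so the differences above cannot be taken as particular to adjacent genes.

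**Figure D5:**
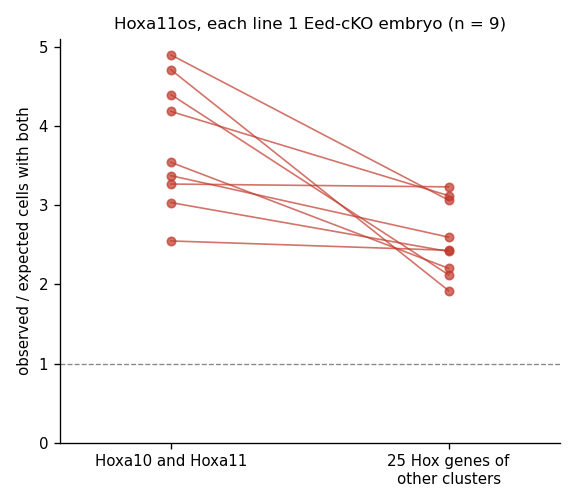
Observed over expected number of cells with both genes for *Hoxa11os*, with its neighbours *Hoxa10* and *Hoxa11* (left) and with 25 Hox genes of the other clusters (right). Each line is 1 *Eed-cKO* embryo (n = 9), the dashed line marks independence, and all 9 lines are higher on the left.

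The noncoding RNAs were seldom found together, in more cells than expected by independence within depth bins of each embryo. Cluster was not held fixed, though the 3 clusters above, with 34.9% of the cells, held 81.6% of those with any of the RNAs. The part of cluster was not tested, and no test was run on these counts. Of the 326 *Eed-cKO* cells with any of them, 13 had 2 and none had more, where 6.43 pairs were expected over 21 pairings. Of these cells, 6 held *Hotairm1* and *Hoxa11os* (2.33 expected) and 3 held *Hoxaas3* and *Hoxa11os* (0.411 expected). None of the HoxD RNAs shared a cell with *Hoxa11os*, at 0.790 expected for *Hoxd3os1* and 0.553 for *Haglr*, numbers too low for this absence to be informative.

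The genes most often found with the 2 RNAs of over 50 cells were ranked by observed over expected cells, as a description. For *Hotairm1*, over 8235 genes, they were *Oaf* (12 cells against 1.53), *Dbx2*, a homeobox gene of neural progenitors (17 against 2.22), and *Etv4*, an ETS factor gene (14 against 1.85). For *Hoxa11os*, over 9949 genes, they were *Olig3*, a factor gene of dorsal progenitors in hindbrain and spinal cord (19 against 3.30), *Hotair* (19 against 4.31) and *Hoxa3* (23 against 5.34). No Hox gene was among the first 10 for *Hotairm1*, and 4 were for *Hoxa11os*, counting *Hotair*. The ranking took only genes in at least 100 cells with at least 10 cells with both, so sparser Hox genes could not enter. *Hoxb8*, for example, was found with *Hotairm1* in 6 cells against 0.836 (ratio 7.18) and was left out. These counts are therefore not a contrast between the 2 RNAs.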

How the data were processed

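Single cells of E18.5 hypothalamus were sequenced in 48 libraries. The deposited table, made by the authors with the SureCell pipeline, holds unnormalized counts of UMIs for each gene in each cell of all libraries. Per the labels, STAR 2.5.2b, SAMtools 1.3 and mm10 were used. Cells and genes had been filtered before deposit, with 601 UMIs in the shallowest cell and 7 UMIs for the rarest gene, so a gene absent from the table may have been present below that level. The counting strand and the annotation used are not given in the sources used here. Columns of the second deposited table were not used.

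Clusters of cells were made anew with scanpy and leidenalg (2000 variable genes, of which 7 Hox-cluster genes were taken out, 30 principal components, resolution 1), and 26 clusters were named from marker lists where at least 3 markers were raised. Cell sets rest on these rebuilt clusters and can differ from those of the study. Doublets were scored with Scrublet and removed only as an alternative. All-Hypo UMIs were added up for each embryo. The sums entered the quasi-likelihood test of edgeR 4.0.16 (R 4.3.3) with TMM scaling and Benjamini-Hochberg adjustment, at a threshold of 0.05. The filter followed the study's methods (at least 15 UMIs in all, at least 2 in 1 embryo, median log-CPM of at least 1.5). DESeq2 1.42.0 and limma 3.58.1 were alternatives. Tested on simulated data for this comparison, edgeR found 95.2% of the 186 genes that had been changed among 12445, and 3.28% of its calls were false. The simulation held only genes past the filter and changed them by small fixed folds around their mean over both groups. Its rates do not cover genes at or near 0 in control.

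Shares of cells with at least 1 UMI were compared over embryos by two-sided exact permutation, and paired values by exact sign flips over embryos. Thinning drew 2000 UMIs from each cell. Floors are 3 UMIs of a group's total, or 3 cells of its cells, and intervals cover counting error only. Neighbours were the overlapping Hox genes and the nearest one on each side that the table held. The genes named were the 7 noncoding RNAs, *Eed*, their neighbours, and the 3 genes with the highest observed over expected co-detection for RNAs in at least 50 *Eed-cKO* cells (genes in at least 100 cells, at least 10 cells with both). The RNAs, gene lists and tests were chosen with earlier results of these data known. Embryos of a litter are not fully independent, and p-values measure the spread between these embryos. One neighbouring gene is counted in the sums over neighbours but is not reported here on its own.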

Additional observations from a re-analysis of the deposited data

Results flagged for a closer look

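The levels of 9 groups of embryos with any UMI were examined for a single embryo far from the others, by the gap to its nearest neighbour as a share of the range, and 5 stood out. Chance gives about 1 in 20 for values without ties, a rate that does not hold for groups made mostly of zeros. A lone UMI, as for *Hoxd3os1* in control, is always picked. In *Eed-cKO*, *Hotairm1* was at 7.34 CPM in embryo 7, against 3.07 in the next embryo. Its 18 UMIs came from 14 cells of both libraries, 4 of which held 2 UMIs, and 8 of the cells were neuron-like. *Hoxa11os* was at 14.2 CPM in *Eed-cKO* embryo 9, against 8.28 in the next, from 9 UMIs in 8 cells of the embryo's only library. *Hoxaas2* was at 1.97 CPM in *Eed-cKO* embryo 6, from 4 UMIs. In control, *Hotairm1* was at 0.785 CPM in embryo 1, from 4 UMIs in 3 libraries, and *Hoxd3os1* at 0.158 CPM in embryo 5, from 1 UMI in the library with the most cells. The cause of these values was not tested.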

How the results depend on the processing

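The number of the 7 RNAs called in All-Hypo was 1 with the study's filter, 5 with its total-count part alone, 5 in each of the fits that also left out an embryo, and 7 with no filter beyond that of the deposited table. Over all genes, 3482 were called, against 1496 with limma-voom and TREAT, 5860 with each library taken as a sample, 1804 in neuron-like clusters alone, and 2831 to 3848 with an embryo left out. Of these calls 55.1% were higher in *Eed-cKO*, against 67.8% with scaling by library size alone and 73.5% with TREAT. The log2 fold change of *Hoxa11os* ran from 7.72 to 7.91 with an embryo left out. The number of RNAs with a higher share of cells was 6, against 1 when at least 2 UMIs were asked for, 1 in glial or progenitor-like clusters alone, and 5 to 7 with an embryo left out. This number is a description, as the direction was fixed for the 5 RNAs without a control UMI. Thinning to 2000 UMIs ended the call of *Hotairm1* in All-Hypo against non-neural cells (0.179 percentage points), of *Hoxa11os* with *Hoxa10* (ratio 3.49) and with *Hoxa11* (3.29), of all RNAs in neighbouring against other-cluster Hox genes (log2 difference 0.0036, 7 embryos with counts) and of *Hoxa11os* alone in the same comparison (1.07, 5 embryos). Thinning leaves fewer cells with both genes. The call of *Hoxa11os* with *Hoxa11* was also lost at 2 or more UMIs of *Hoxa11* (3.88). The neighbour difference over all RNAs was 0.26 in neuron-like clusters alone, 0.25 within clusters, both without a call, and 0.37 to 0.56 with an embryo left out. The difference of *Hoxa11os* between neuron-like and other neural cells lay between -1.11 and -0.511 percentage points with an embryo left out. No result changed direction past its threshold. The cause of these changes was not tested. No paired analysis was possible because the labels number libraries, and no number ties a control embryo to an *Eed-cKO* embryo. Depth limits the 5 RNAs with 11 to 32 UMIs, whose cells with both genes were too few to test.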

Other observations

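Outside the clusters with the highest shares, 3 further groups of *Eed-cKO* cells held the noncoding Hox RNAs at values not described above. An unnamed cluster with *Alas2*, *Pomc* and *Cga* among its leading genes had 223 *Eed-cKO* cells and 1 control cell. Any of the 7 RNAs was in 17 of these cells (7.62%) and a Hox protein-coding gene in 208 (93.3%), at a median depth of 6370 UMIs. A neuron-like cluster led by *Lhx6* and Dlx genes had 208 *Eed-cKO* and 340 control cells, and 9 of its *Eed-cKO* cells held one of the RNAs (4.33%). An unnamed cluster led by *Ttr*, a transthyretin gene high in choroid plexus, also had *Cga* and *Tshb* among its leading genes. It had 61 *Eed-cKO* cells of 7 embryos and no control cell, and 4 of them held *Hotairm1* (6.56%, exact 95% binomial interval 1.82 to 15.9). These 4 cells came from 2 embryos, and the interval does not cover the spread between embryos. These clusters were picked after their values were seen, and no test was run on them.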
